A study of Homo sapiens with 4 samples.

Results

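The keratin genes lie in clusters on chromosomes 12 and 17, and the chromatin loops and contact domains over both clusters were compared between MDA-MB-231 cells treated with vehicle and with THZ1. Members were the protein-coding genes whose symbol is KRT followed by a digit in chr12:52500000-53400000, which holds the type II genes and KRT18, and in chr17:38700000-39900000, which holds the other type I genes (GRCh37). There were 55 such genes, 27 on chromosome 12 and 28 on chromosome 17, of 20176 protein-coding genes. Loops were counted when either anchor overlapped a window, and domains when any part of them did. This gave 40 of 20768 loops in vehicle replicate 1, 45 of 24219 in vehicle replicate 2, 35 of 17222 in THZ1 replicate 1 and 31 of 15066 in THZ1 replicate 2. Domains over the windows numbered 3 of 1198, 2 of 1398, 5 of 2477 and 4 of 2345 in the same order of libraries, which is kept wherever 4 values follow each other.

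MDA-MB-231 is an established human line of triple negative breast cancer, labelled wild type in all samples. Cells received DMSO or 75 nM THZ1, a covalent inhibitor of the kinase CDK7, for 48 h and were profiled by Hi-C, which counts how often pairs of genome positions are ligated together in crosslinked nuclei. Each condition had 2 libraries. The labels call them technical replicates, while the paper describes treatment of the cells in duplicate. Neither states that the cultures were separate, so every spread below is that between 2 libraries and may be technical. With 2 libraries against 2, an exact two-sided permutation test cannot give a p below 0.3333. In these 4 samples contacts were measured and expression was not, so nothing below is about how much of any keratin was made.

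Keratins are the intermediate filament proteins of epithelial cells, and each filament pairs a type I with a type II chain. Simple epithelia use KRT8 with KRT18 and often KRT7 with KRT19, basal keratinocytes use KRT5 with KRT14, and the layers above them, the inner root sheath and the hair shaft each use further pairs. The genes of a pair are mostly on different chromosomes, with KRT18 as the exception: it is a type I gene that lies beside KRT8 at the end of the type II cluster. A block of genes for keratin-associated proteins (KRTAP), the matrix proteins of hair, divides the type I cluster. Loops of this kind often join sites of the protein CTCF whose motifs point towards each other.

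The sites below are the CTCF core motifs in the 5 kb anchors, as placed in vehicle replicate 1, of 5 of the loops described further on, with 10 bases on either side, read 5′ to 3′ on the strand named. Capitals mark the motif searched on both strands, which reads CCA, any 2 bases, AG, any 2 bases and GGC. Positions are of the motif in GRCh37.
Left anchor of the NR4A1 loop, plus strand, chr12:52419611-52419622: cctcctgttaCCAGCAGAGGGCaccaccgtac
Right anchor of the NR4A1 loop, minus strand, chr12:52510571-52510582: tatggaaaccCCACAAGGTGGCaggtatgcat
Left anchor of the type II cluster loop, plus strand, chr12:52540395-52540406: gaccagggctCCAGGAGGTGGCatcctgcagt
Left anchor of the type II cluster loop, plus strand, chr12:52542428-52542439: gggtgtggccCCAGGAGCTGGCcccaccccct
Right anchor of the type II cluster loop, plus strand, chr12:53267529-53267540: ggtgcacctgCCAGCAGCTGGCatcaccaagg
Left anchor of the loop around KRT8 and KRT18, minus strand, chr12:53289285-53289296: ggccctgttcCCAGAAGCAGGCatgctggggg
Right anchor of the loop around KRT8 and KRT18, minus strand, chr12:53374777-53374788: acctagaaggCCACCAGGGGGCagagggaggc
Left anchor of the KRT28 to KRT17 loop, plus strand, chr17:38959959-38959970: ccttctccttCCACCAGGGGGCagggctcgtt
Left anchor of the HAP1 to P3H4 loop, plus strand, chr17:39894416-39894427: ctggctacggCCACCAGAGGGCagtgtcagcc
Right anchor of the HAP1 to P3H4 loop, minus strand, chr17:39958007-39958018: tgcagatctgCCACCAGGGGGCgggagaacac
At the NR4A1 and the HAP1 to P3H4 loops the motifs of both anchors pointed towards each other. At the type II cluster loop all 3 motifs were on the plus strand, so that no such pair of these letters was present within its 5 kb anchors. The next 5 kb to the right, chr12:53270001-53275000, was an anchor of another loop in THZ1 replicate 1. It held motifs on the minus strand at chr12:53273411-53273422 and chr12:53273890-53273901. At the loop around KRT8 and KRT18 the motifs of both anchors were on the minus strand. Its left anchor in the other libraries, chr12:53275001-53280000, held no motif. Neither anchor of the KRTAP loop on chromosome 17 held the motif.

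The type II cluster was covered by a contact domain in each vehicle library, and no domain was called over it after THZ1. A contact domain is a block of chromatin whose positions touch each other more than they touch positions outside, and its corner score rises with how clear the block is. The domain ran over chr12:52510001-53270000 with a corner score of 0.963 in vehicle replicate 1, and over chr12:52520001-53270000 with a score of 1.15 in vehicle replicate 2. It held 25 of the 27 keratin genes of the window, from KRT80 to KRT78, and left out KRT8 and KRT18. Its score was below the median of the domains of the 4 lists in vehicle replicate 1 and not in vehicle replicate 2. Genome-wide, 11.5% of the domains of vehicle replicate 1 were likewise shared by the vehicle pair alone, with both boundaries within 20 kb. THZ1 libraries had more domains in all, 2477 and 2345 against 1198 and 1398.

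**Figure D1:**
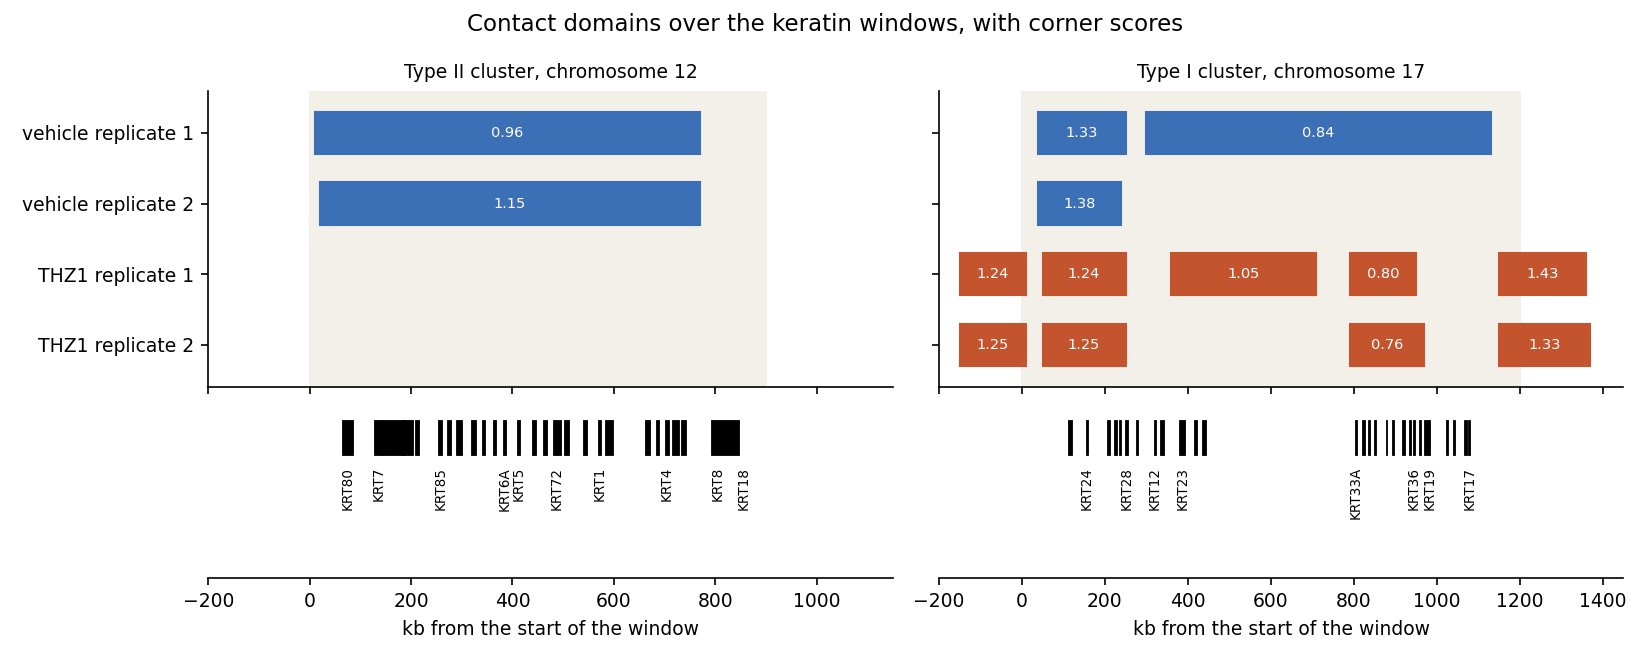
Contact domains over the type II window (left) and the type I window (right), with distance from the start of the window in kb on the x axis, 1 row for each library and the corner score written in each bar. Shading marks the window and black boxes the keratin genes. A domain of 760 and 750 kb covered the type II cluster in the vehicle libraries and none was called there in the THZ1 libraries, whereas the domain of 200 to 210 kb over KRT222 to KRT27 was called in all 4 libraries.

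A loop that ends at the right edge of this domain and starts 20 to 30 kb inside its left edge was called at identical anchors in all 4 libraries. It links chr12:52540001-52545000 with chr12:53265001-53270000, is 725 kb long and encloses the same 25 genes, and is called the type II cluster loop here. Its peak held 28, 28, 19 and 23 contacts, where the surrounding ring of pixels (the donut) led the loop caller to expect 1.21, 1.86, 2.25 and 2.39. Observed over expected contacts, the strength used below, were 23.1 and 15.0 with vehicle, against 8.46 and 9.62 after THZ1. Both THZ1 values were below both vehicle values, and fewer contacts were observed as more were expected.

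The strength of this loop fell by 1.00 on the log2 scale with THZ1 (SE 0.26, adjusted p = 0.0109, edgeR quasi-likelihood test with the donut expectation as offset, fitted on 2617 loops with identical anchors in the 4 lists). The same test called 27.6% of those 2617 loops lower and 0.0382% higher, and the median change over all of them was -0.41, so that the type II cluster loop lay 0.59 below that median. Only loops called in all 4 libraries entered the test. The call was lost with each of the other 3 expectations of the caller (log2 change -0.73, -0.94 and -0.59), without an expectation (log2 change -0.40, edgeR adjusted p = 0.465) and when any library was left out (log2 change from -0.73 to -1.35, edgeR adjusted p from 0.0581 to 0.139).

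Most other loops of the type II window were called under both conditions. Loop numbers there were 14, 17, 15 and 14, and the groups overlapped. Of the 14 loops of vehicle replicate 1, 12 had a counterpart in all other libraries, with both anchor midpoints within 20 kb, and of the 15 loops of THZ1 replicate 1 this held for 14. Over the whole genome, 41.9% of the list of vehicle replicate 1 and 50.4% of the list of THZ1 replicate 1 recurred in every library. No loop of this window was particular to a condition, that is, shared by its pair of libraries and missing from the other pair. The measure is generous where loops are short and close together, since neighbouring loops can then match the same counterpart.

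**Figure D2:**
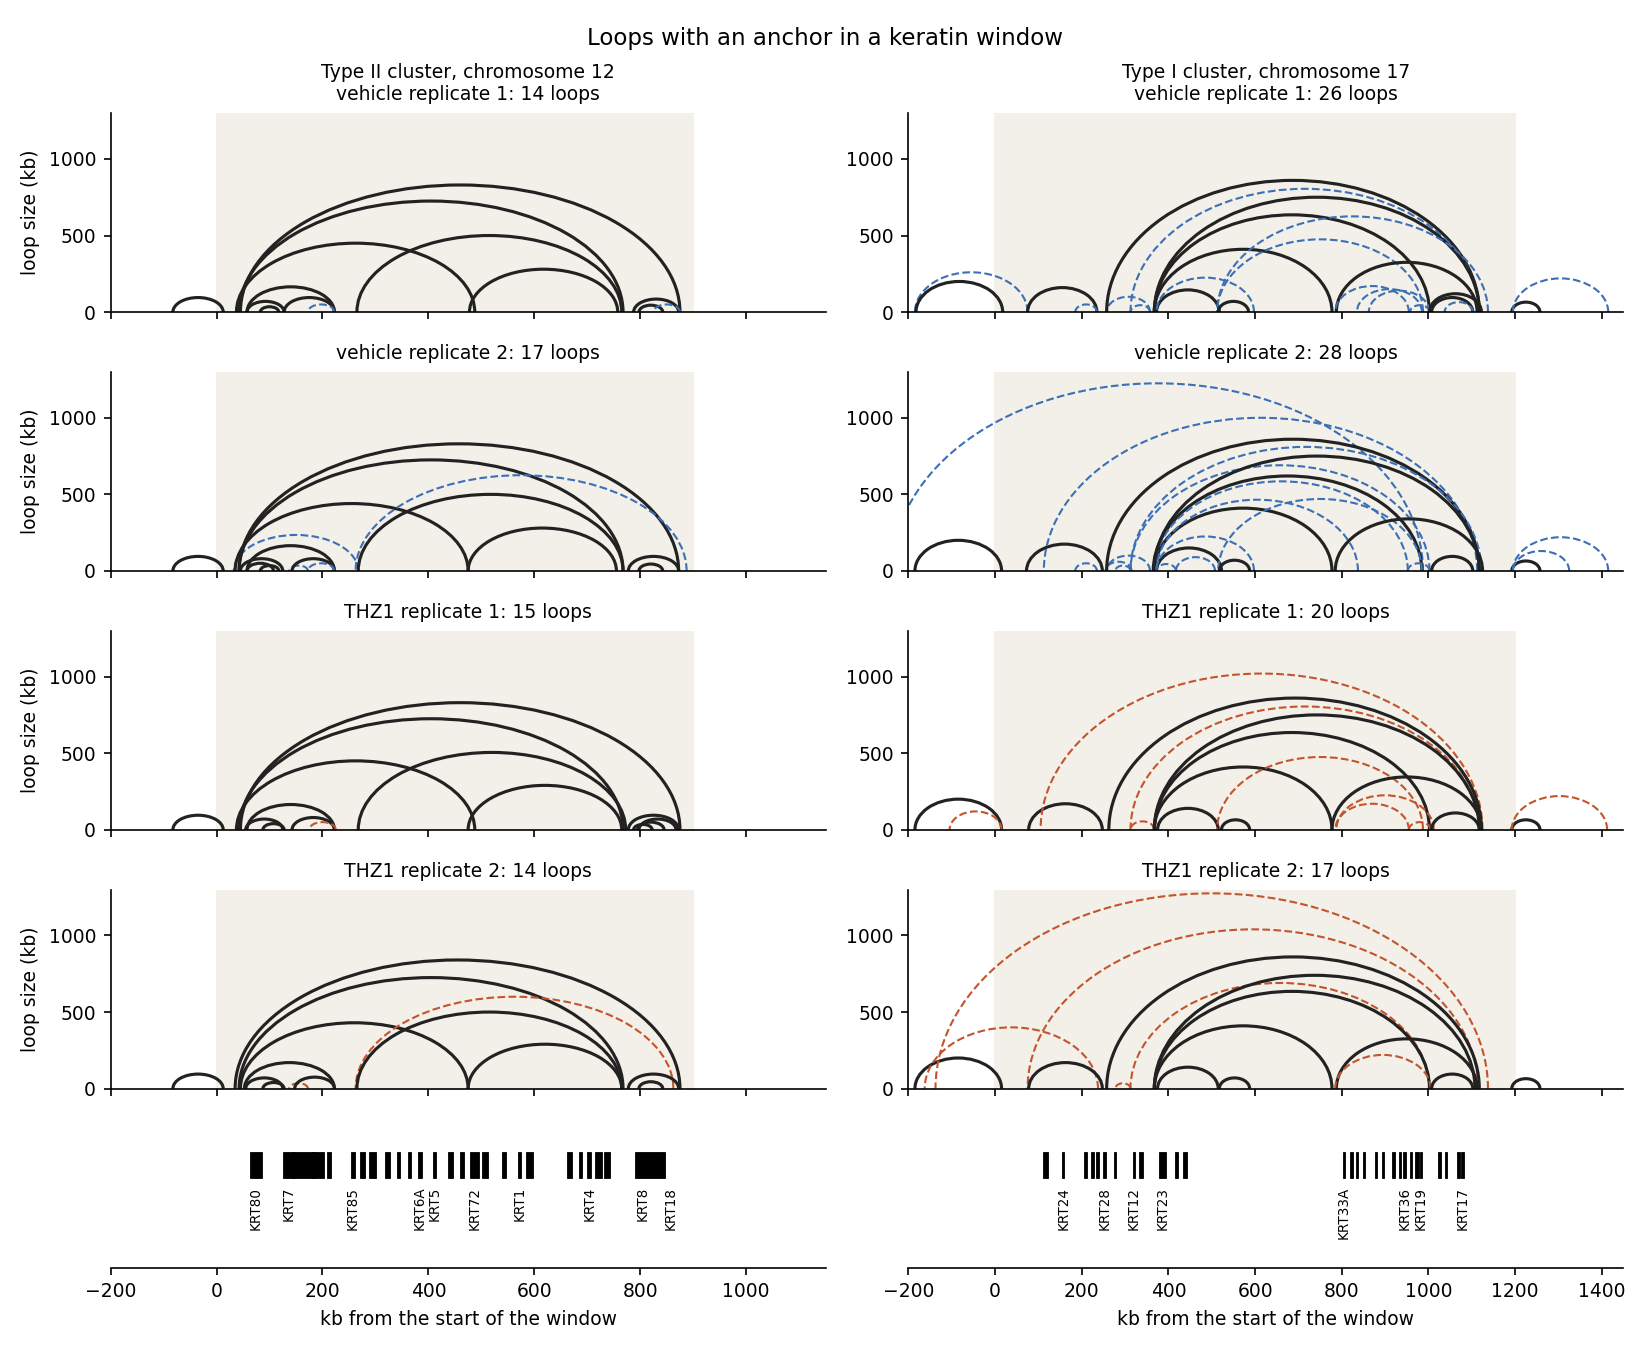
Loops with an anchor in the type II window (left) and the type I window (right), 1 row for each library, with distance from the start of the window in kb on the x axis and loop size as the height of the arc in kb on the y axis. Solid black arcs are loops found in all 4 libraries and dashed coloured arcs are the others, shading marks the window and black boxes the keratin genes. The type II window held 14 to 17 loops, nearly all shared, and the type I window held 26, 28, 20 and 17 from top to bottom.

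Within the type II cluster the loops formed nested sets that shared anchors. The left edge, chr12:52540001-52560000, just outside KRT80, held 4, 5, 4 and 4 anchors, the largest sum among the bins of 20 kb of this window. From there or from just before it loops reached KRT7, the site beyond KRT83, KRT72, the end of the cluster at KRT78 and the site beyond KRT18. The longest of these, of 830 to 840 kb, went around all 27 genes and was called in every library. The loop to the site beyond KRT83, chr12:52555001-52560000 with chr12:52720001-52725000 in vehicle replicate 1, encloses KRT80, KRT7, KRT86, KRT81 and KRT83, and had observed over expected contacts of 9.25, 11.1, 8.96 and 10.5. These values overlapped between conditions. A loop at KRT80, a type II keratin, was 35 kb long with vehicle and 40 kb with THZ1, where its far anchor reached KRT7. It had 2.53, 2.79, 2.81 and 2.34, which also overlapped.

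KRT8 and KRT18, the pair of simple epithelia, lay outside the domain and formed a small structure of their own. A loop of 45 kb joined the anchor at the start of KRT8, chr12:53295001-53300000, with the anchor at the start of KRT18, chr12:53340001-53345000, in vehicle replicates 1 and 2 and THZ1 replicate 2, while in THZ1 replicate 1 it was called with 10 kb anchors and 50 kb long. With 5 kb anchors it had 65, 61 and 60 contacts and an observed over expected value of 6.76 and 6.32 with vehicle and 4.75 in THZ1 replicate 2. The value in THZ1 replicate 1 was 2.88 from 128 contacts, but 10 kb anchors give other levels than 5 kb anchors, so it is not comparable.

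A longer loop from chr12:53285001-53290000 (from chr12:53275001-53280000 in the other libraries) to chr12:53370001-53375000 enclosed KRT8 and KRT18 together. Its observed over expected contacts were 5.90 and 10.4 with vehicle and 12.1 and 10.8 with THZ1, so that both THZ1 values were above both vehicle values. Of 4428 loops with the same anchor width and anchors within 10 kb in all 4 lists, a set chosen after the data were seen, 2.35% showed that order and 62.6% the opposite. The change was 0.51 on the log2 scale (SE 0.23, edgeR adjusted p = 0.126), which did not pass the threshold. Vehicle replicate 1 is the low value, and its left anchor lies 10 kb inside that of the other libraries.

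In the type I window on chromosome 17, a short domain at the edge was shared by all libraries while the rest of the cluster was divided differently. The shared domain covered KRT222, KRT24, KRT25, KRT26 and KRT27, and ran over chr17:38740001-38950000, chr17:38740001-38940000, chr17:38750001-38950000 and chr17:38750001-38950000 with corner scores of 1.33, 1.38, 1.24 and 1.25. Vehicle replicate 1 also had a domain of 830 kb over chr17:39000001-39830000 (score 0.841) that held 21 keratin genes, from KRT12 to KRT17, and 34 KRTAP genes. It was called in no other library, including vehicle replicate 2.

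Both THZ1 libraries had a domain over the hair keratin genes instead, chr17:39490001-39650000 (score 0.800) and chr17:39490001-39670000 (score 0.764). The domain held KRT33A, KRT33B, KRT34, KRT31, KRT37, KRT38, KRT32, KRT35 and KRT36, type I chains of the hair shaft, and in THZ1 replicate 2 KRT13 as well. KRT39 and KRT40, the other type I genes of the hair group, lay outside it. A domain past the end of the cluster, chr17:39850001-40060000 and chr17:39850001-40070000 with scores of 1.43 and 1.33, was also shared by the THZ1 pair alone. These are 2 of the 5 domains of THZ1 replicate 1 over the windows, beside 29.6% of its domains genome-wide. THZ1 replicate 1 alone had a domain over KRT23, KRT39, KRT40 and 28 KRTAP genes. A domain of 160 kb at the outer edge, chr17:38550001-38710000, was found after THZ1 in each library and had a counterpart in vehicle replicate 1 that ended before the window.

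In all, 51, 30, 17 and 15 of the 55 keratin genes lay inside a called domain, which is 92.7%, 54.5%, 30.9% and 27.3% of them. Of all protein-coding genes 11.9%, 13.7%, 21.4% and 21.1% did, so that the counts of keratin genes were lower with THZ1 where those of all genes were higher. The keratin genes share a few domains and are not separate observations, and the largest step was within the vehicle condition, from the domain on chromosome 17 that vehicle replicate 2 lacked. The number of domains over the windows was 2.50 ± 0.71 with vehicle and 4.50 ± 0.71 with THZ1 (SD, n = 2 each, exact permutation p = 0.3333). Of domains wholly inside a window there was no difference in number between the conditions.

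The type I window had fewer loops with THZ1. There were 26, 28, 20 and 17, so that the groups did not overlap, with a mean of 27.0 ± 1.41 against 18.5 ± 2.12 (SD, n = 2 each, exact permutation p = 0.3333), a 1.46-fold difference. Over all loops the vehicle libraries had 1.39-fold more, and the type I window held 0.125%, 0.116%, 0.116% and 0.113% of the loops of each library. Both windows together held 0.193%, 0.186%, 0.203% and 0.206%. The type II window held 0.0674% and 0.0702% with vehicle and 0.0871% and 0.0929% with THZ1, since its number of loops differed only 1.07-fold in the means while the lists were shorter. The windows thus differed, with the type I share overlapping between the conditions and the type II share higher with THZ1 (exact permutation p = 0.3333).

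Small loops were also fewer in the type I window. Loops of 90 kb or less numbered 6, 8, 4 and 3 on chromosome 17 and 6, 7, 7 and 5 on chromosome 12, and 7740, 8910, 4513 and 3846 over all loops. They made up 23.1%, 28.6%, 20% and 17.6% of the loops of the type I window, where the groups did not overlap (exact permutation p = 0.3333). As a share of the loops of both windows they made up 30%, 33.3%, 31.4% and 25.8%, which overlap, whereas over all loops the shares were 37.3% and 36.8% against 26.2% and 25.5%. The median size of the keratin loops was 155, 175, 170 and 220 kb (difference of means 30 kb, exact permutation p = 0.667), and the difference was 5 kb without THZ1 replicate 2 and 55 kb without THZ1 replicate 1. For all loops it was 140 kb in each vehicle list and 200 kb in each THZ1 list. The keratin sizes overlapped between the conditions, unlike those of the full lists, and their number per library, 31 to 45, limits what could be detected.

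**Figure D3:**
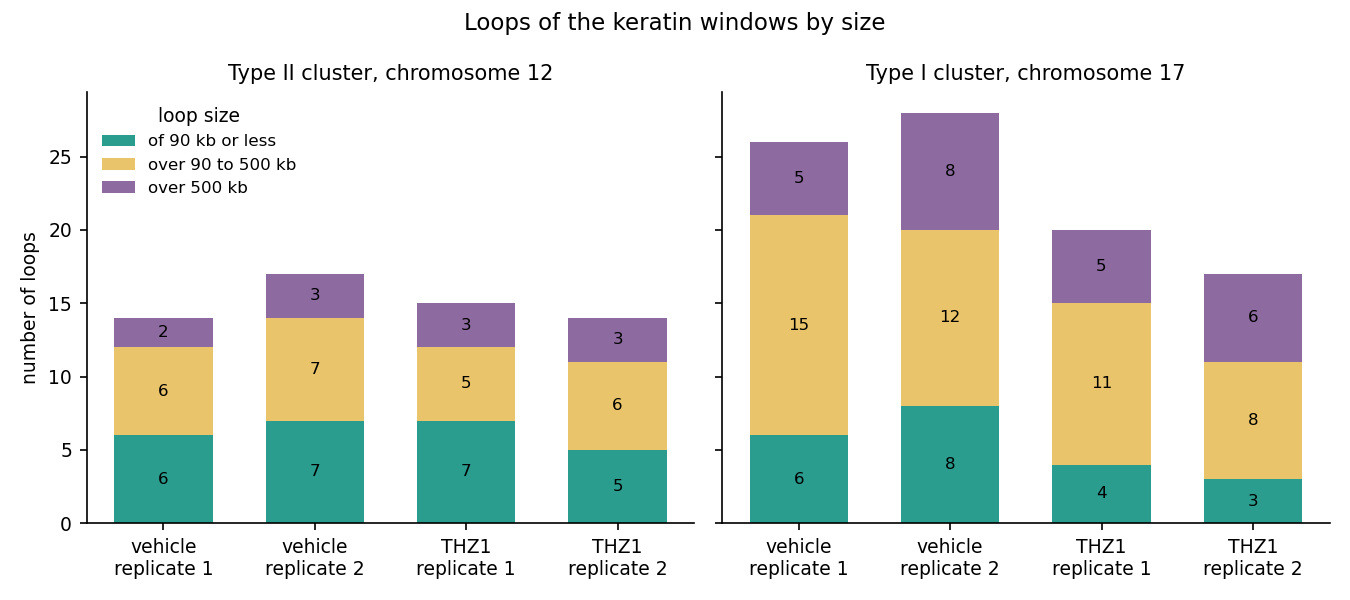
Number of loops in the type II window (left) and the type I window (right) for each library, stacked by loop size. Loops of 90 kb or less made up 5 to 7 of those in the type II window, and 6, 8, 4 and 3 of those in the type I window, in the order of the bars.

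The keratin loops particular to a condition were all on chromosome 17. From the list of vehicle replicate 1, 3 of 40 keratin loops were shared by the vehicle pair alone, where the share over all its loops was 16.4%. They joined chr17:38880001-38890000 with chr17:38930001-38940000 at KRT27, chr17:38955001-38960000 at KRT28 with chr17:39055001-39060000 beyond KRT20, and chr17:39070001-39075000 beside KRT23 with chr17:39295001-39300000 at KRTAP4-6. KRT27 and KRT28 are type I keratins of the inner root sheath. Their observed over expected contacts were 2.08 and 2.14 at KRT27, 4.14 and 4.53 at KRT28 and 7.26 and 8.81 at KRTAP4-6 in vehicle replicates 1 and 2.

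In the other direction, 1 of 35 loops of THZ1 replicate 1 was shared by the THZ1 pair alone, beside 4.58% of all its loops. It starts before KRT33A at chr17:39475001-39500000 and ends at chr17:39700001-39725000, whose 25 kb anchor overlaps KRT9, a keratin of palm and sole skin, and had an observed over expected value of 2.13. In THZ1 replicate 2 it ran from chr17:39480001-39490000 to chr17:39700001-39710000 with 3.38. With counterparts allowed within 50 kb it was no longer limited to THZ1. A loop that is not listed fell short of the threshold of the caller, and its contacts in that library are not given, so absence from a list is no measure of how many contacts remained.

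Long loops framed most of the type I cluster in every library. A loop of 860 kb ran from chr17:38955001-38960000 at KRT28 to chr17:39815001-39820000 beyond KRT17, the wound and basal keratin at the far end. It enclosed 22 of the 28 keratin genes of the window. In THZ1 replicate 1 both anchors lay 5 kb further on, at chr17:38960001-38965000 and chr17:39820001-39825000, and the first no longer touched KRT28. The loop had 7.33, 11.4, 12.1 and 12.8 in observed over expected contacts. Its THZ1 values were both above the vehicle values, with a change of 0.40 on the log2 scale (SE 0.28, edgeR adjusted p = 0.344) that did not pass the threshold. A loop of 750 kb from chr17:39065001-39070000, beside KRT23, to the same end (to chr17:39805001-39810000 in THZ1 replicate 2) had 10.9, 7.18, 6.28 and 8.54, which overlapped. The loop called the KRTAP loop here, chr17:39065001-39070000 with chr17:39475001-39480000, encloses KRT23, KRT39, KRT40 and the KRTAP block. Its values were 8.04 and 10.9 with vehicle and 5.48 and 7.28 with THZ1, which did not overlap, and its change of -0.58 (SE 0.25, edgeR adjusted p = 0.0920) did not pass.

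Loops with identical anchors in all 4 lists numbered 4 in the windows, and both that are not yet described sit at the edges with no keratin gene at an anchor. The NR4A1 loop, chr12:52415001-52420000 with chr12:52510001-52515000, starts in the gene of an orphan nuclear receptor and ends where the domain of the type II cluster began in vehicle replicate 1. It had 6.36, 6.53, 5.99 and 4.46 in observed over expected contacts (log2 change -0.30, SE 0.23, edgeR adjusted p = 0.360). The HAP1 to P3H4 loop, chr17:39890001-39895000 with chr17:39955001-39960000, had 71, 74, 94 and 57 contacts, the most of any 5 kb keratin loop in 3 of the 4 libraries. Its values were 16.8, 15.6, 14.5 and 10.3 (log2 change -0.37, SE 0.18, edgeR adjusted p = 0.136). The order with both THZ1 values below both vehicle values held for all 4 loops and for 68.8% of the 2617 loops genome-wide, and the opposite order for none of the 4 and 1.18% of the 2617. Of the 4 loops 1 passed the test, and their median change of -0.47 was near the -0.41 of all loops.

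**Figure D4:**
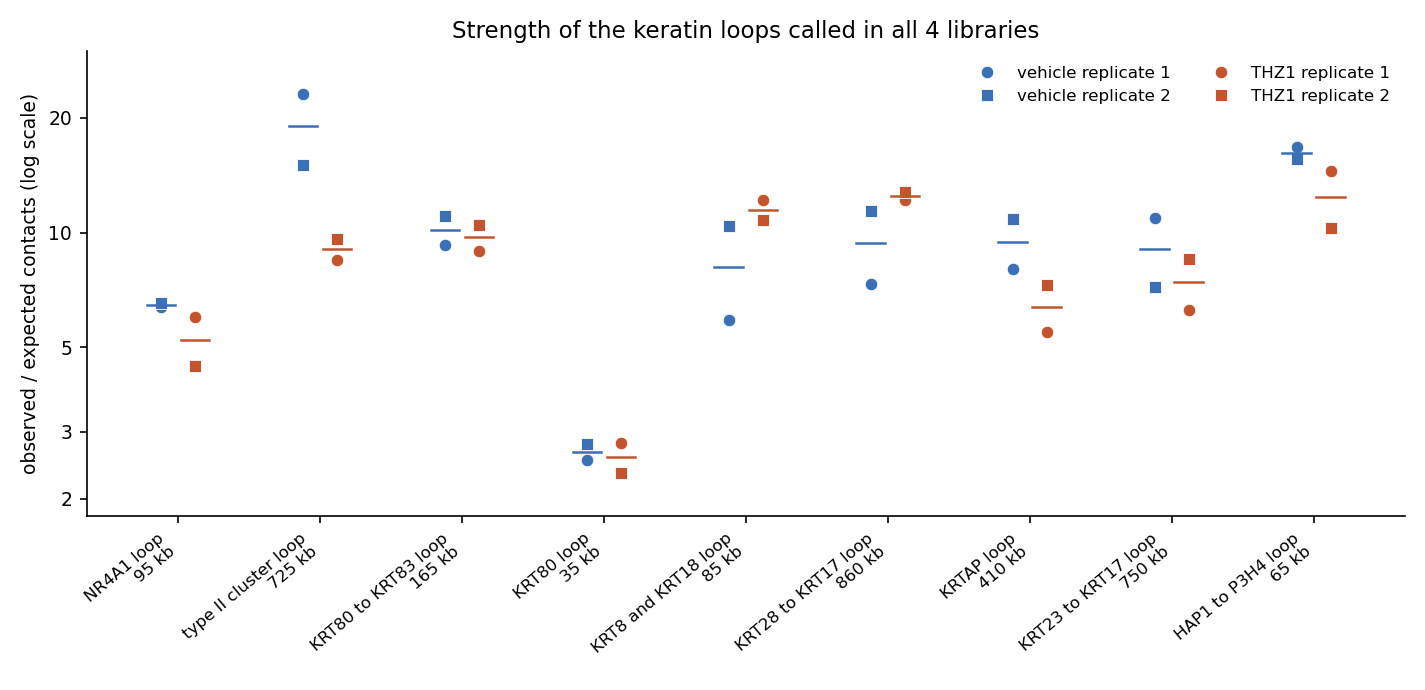
Observed over expected contacts of the 9 keratin loops with the same anchor width and anchors within 10 kb in all 4 lists, on a log scale, in chromosomal order with the loop size in kb. Points are libraries and short lines the mean of 2 libraries. The type II cluster loop shows the widest gap, 15.0 and above with vehicle against 9.62 and below with THZ1, and the loops at KRT8 and KRT18 and from KRT28 to KRT17 are higher in both THZ1 libraries.

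Few keratin genes were themselves at a loop anchor, and those grouped here as simple epithelial were at one most often. That group was set as KRT7, KRT8, KRT18, KRT19, KRT20, KRT23 and KRT80. A gene was counted when its body overlapped an anchor by any length. By this measure 23 of 55 genes were at an anchor in at least 1 library, and 14, 17, 13 and 13 in each library. That is 25.5%, 30.9%, 23.6% and 23.6% of them, where 58.3%, 61.5%, 53.1% and 50.3% of all protein-coding genes were at an anchor. The 32 genes never at an anchor lay between the anchors of 1 to 13 loops in each library. KRT5, KRT6A, KRT6B, KRT6C, KRT16 and KRT17 were among them.

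By group, 6 of 7 simple epithelial keratin genes were at an anchor in some library, 2 of 8 of the basal and wound group, 4 of 13 of the suprabasal and regional group, 4 of 9 of the inner root sheath and 6 of 17 of the hair group, besides KRT222. In the 4 libraries the simple epithelial group had 5, 5, 6 and 5 genes at an anchor and the hair group 3, 5, 2 and 3. The basal and wound group had 2, 1, 1 and 0, from KRT14 and KRT15. These counts overlapped between the conditions or differed by 1 gene.

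Among the simple epithelial genes, KRT7 had the most loops, 2, 3, 3 and 4. KRT8 had 2, 1, 3 and 1, KRT18 had 1 in each library and KRT80 had 1 in each library. KRT19, the partner of KRT7 in many carcinomas, had 2 and 3 with vehicle and 1 and 0 with THZ1, all with 10 or 25 kb anchors. In vehicle replicate 2, 1 of these joined chr17:39060001-39070000 with chr17:39680001-39690000 and had counterparts in all other libraries. Their right anchor was the 5 kb chr17:39700001-39705000, which missed the gene. KRT23 had 0, 0, 1 and 1, but its loop was called in all 4 libraries: the left anchor was chr17:39070001-39075000 with vehicle, just short of the gene, and the wider chr17:39070001-39080000 with THZ1, which reached it. Counts of loops at a gene thus also move with anchor width. Some of these counts are shared, since the bodies of KRT7 and KRT86, of KRT86 and KRT81 and of KRT8 and KRT18 overlap in the annotation.

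Of the other groups, KRT28 had 2, 4, 1 and 3 loops and KRT72, also of the inner root sheath, had 2 in each library. KRT86, a hair keratin beside KRT7, had 1, 3, 2 and 2. KRT85 had 1, 1, 0 and 2, KRT27 had 2, 1, 0 and 1, KRT13, of the mucosal layers above the basal cells, had 2, 0, 2 and 0, and KRT15 had 1, 1, 1 and 0. These counts overlapped or met between the conditions. Of the 23 genes, KRT19 and KRT34 had fewer loops in both THZ1 libraries than in both vehicle libraries and KRT23, through the wider anchor, had more. That is 8.70% and 4.35% of them, beside 24.3% and 3.47% of the 14386 protein-coding genes with a loop in any library.

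**Figure D5:**
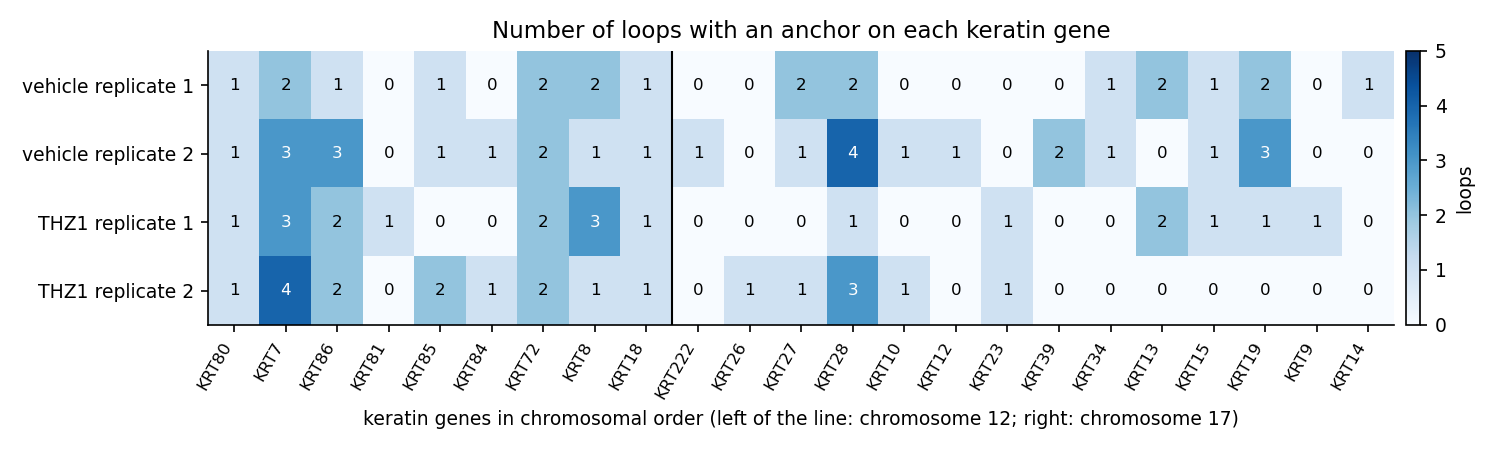
Number of loops with an anchor on each of the 23 keratin genes that had one in any library, with genes in chromosomal order on the x axis, libraries as rows and the count as colour and number. KRT7 had 2 to 4 loops in every library, KRT72 had 2 in each, and KRT19 had 2 and 3 with vehicle and 1 and 0 with THZ1.

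In the 4 lists together, 82 of 151 keratin loops had no keratin gene at either anchor, 59 had one at 1 anchor and 10 at both. Anchors gathered at few places: in bins of 20 kb, 26 of 45 bins on chromosome 12 and 35 of 60 on chromosome 17 held no anchor in any library, and the 6 fullest bins of each window held 58.6% and 52.1% of its anchors. The fullest were chr17:39060001-39080000 beside KRT23, with 5, 8, 5 and 4 anchors, and chr17:39800001-39820000 beyond KRT17, with 6, 4, 3 and 5. The counts of both these bins overlapped or met between the conditions. Those of some other bins did not. Most of these held fewer anchors in both THZ1 libraries, such as chr17:39200001-39220000 with 4, 3, 2 and 2. The exception was chr12:53260001-53280000, with 2, 3, 4 and 4. The THZ1 lists also held fewer loops in all, and bins outside the windows were not counted.

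The CTCF core motif was in 23 of 57 distinct 5 kb anchors inside the windows (40.4%) and in 25.5% of all 5 kb anchors of the 4 lists. Among keratin loops with 5 kb anchors, 6 of 26, 7 of 31, 5 of 21 and 2 of 18 had the motif on the plus strand at the left anchor and on the minus strand at the right, where the shares over all such loops were 4.78%, 4.69%, 7.71% and 8.21%. None had the opposite arrangement, with the motif on the minus strand at the left and on the plus strand at the right. That arrangement was rare over all such loops too, at 1.14%, 1.09%, 1.04% and 1.02%, so none among so few keratin loops is near that share. A match of letters is not evidence of binding, and anchors shared by several loops were counted with each.

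Genes of other intermediate filaments and of the plaques and linkers that keratin filaments attach to are outside the windows, and a list of 17 was counted in the same way. They had 57, 59, 38 and 38 loops in all, and 12, 11, 11 and 10 of the 17 were at an anchor. DST, which encodes a large linker of filaments to hemidesmosomes, had 22, 26, 16 and 14 loops, and DSP, the desmosomal plaque protein desmoplakin, had 7, 7, 6 and 7. Fewer loops in both THZ1 libraries than in both vehicle libraries were found for 5 of the 14 with a loop in any library (35.7%) and more for 1 (7.14%), beside the shares of 24.3% and 3.47% given above. VIM, the filament protein of mesenchymal cells, had 1, 2, 0 and 2.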

How the data were processed

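The authors processed Arima-HiC reads with Juicer 1.6 against hg19, per the labels and the processing notes of the submitters, and the file headers name juicer_tools 1.19.02. The settings of the loop and domain callers are not given in the sources used here. Each of the 4 loop lists gives, as deposited, raw counts of contacts at the peak pixel of a loop, a signal for how many were expected from each of 4 neighbourhoods, and an FDR (a corrected p-value) of at most 0.0997. The deposited domain score is the corner score. The depth and total contacts of each single library are not given in the sources used here, so fewer loops and fewer contacts sequenced cannot be told apart. Tables of condition-unique loops with pooled values were not used.

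Members and lists were chosen with earlier results of these data known. Genes are from GENCODE 44 lifted to GRCh37, where none of the 61322 distinct anchors fell outside a chromosome. Loop size is the distance between anchor starts. Loops and domains were matched with both anchor midpoints or boundaries within 20 kb. Strength was tested with edgeR 4.0.16 (R 4.3.3) on observed counts with the log donut expectation as offset, over 2617 of 2624 loops with identical anchors and every expectation above 0, with Benjamini-Hochberg adjustment at 0.05. On simulated counts for those 2617 loops it found 73.3% of 2-fold and 21.1% of 1.5-fold changes. DESeq2 1.42.0 was an alternative. Python 3.11.15, numpy 2.4.6, pandas 2.3.3, scipy 1.17.1 and matplotlib 3.10.9 were used. Genes named are those at an anchor, with values for the up to 15 with the most loops and for KRT7, KRT8, KRT18 and KRT19. Reads of near-identical copies such as KRT6A, KRT6B and KRT6C may not map uniquely, and the effect of this on contacts there was not tested. Sequences are from the GRCh37 genome. Promoter sequences and some anchor sequences are not reported here.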

Additional observations from a re-analysis of the deposited data

How the results depend on the processing

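The difference in keratin loop number (THZ1 minus vehicle, -9.50) was -9 with 5 kb anchors alone and -0.50 with 10 kb anchors alone. It was 0 with 25 kb anchors alone, where 3 or 4 loops remained in each library. The -0.50 joins opposite differences of the windows. Loops with 10 kb anchors numbered 7, 8, 6 and 4 in the type I window and 3, 3, 5 and 5 in the type II window. The difference in median loop size (30 kb) turned to -256 kb with 25 kb anchors alone and ranged from 5 to 55 kb when a library was left out. The difference in domain number (2.00) was 0 for domains wholly inside a window and 1.5 for domains of at least the median corner score. The share of loops of 90 kb or less (-3.05 percentage points) kept its sign or was 0 under all 9 alternatives, and was -4.72 and -1.38 without vehicle replicate 1 or 2 and -5.86 and -0.24 without THZ1 replicate 1 or 2. Loops called with both vehicle libraries only (3) ranged from 3 to 12 when a library was left out, since fewer lists must then agree. Those of THZ1 only (1) ranged from 1 to 5. With counterparts within 50 kb the vehicle loops were 2 and the THZ1 loops 0.

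The count of keratin loops past the strength test (1) was 0 with the horizontal, vertical or bottom-left expectation, 0 without an expectation (TMM, or DESeq2 size factors), 0 when any library was left out, and 0 with at least 20 contacts in every library, where the type II cluster loop was not tested because THZ1 replicate 1 had 19. With DESeq2 on the donut expectation its adjusted p was not given. Over all 2617 loops, 721 passed as lower and 1 as higher. These became 47 and 0 (horizontal), 72 and 0 (vertical), 606 and 0 (bottom-left), 108 and 67 (TMM), 16 and 0 (DESeq2 with the donut expectation) and 0 and 0 (DESeq2 size factors, with 118 at an unadjusted p under 0.05). The median change over all loops was -0.01 with TMM, so the direction of the HAP1 to P3H4 loop turned to 0.0731 (TMM) and 0.065 (DESeq2 size factors). Leaving out a library gave 0 to 226 lower and 0 higher: 226 without vehicle replicate 1, and 0 by edgeR without vehicle replicate 2, THZ1 replicate 1 or THZ1 replicate 2, where 698, 821 and 745 had an unadjusted p under 0.05. With anchors within 10 kb, an alternative chosen after seeing the data, 724 of 4428 were lower and 5 higher. With the replicate number as a block, 770 were lower and the type II cluster loop kept its call. The deviations of same-numbered libraries correlated at 0.02 over loops. Counting noise in so few contacts per loop can hide a pairing, so whether the numbers pair the libraries is not known. The cause of these changes was not tested.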

Other observations

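In the 250 bases before the start of each gene, the AP-1 motif TGANTCA was present in 5 of 55 keratin genes, KRT13, KRT14, KRT15, KRT16 and KRT17, and in 4.73% of 20094 protein-coding genes on either strand. All 5 lie in the stretch from KRT13 to KRT17 at the end of the type I cluster, with KRT19 and KRT9 between them. The GC box GGGCGG was present in 10 of 55 keratin genes and in 58.6% of all genes. KRT16 and KRT17, like KRT5, were at no loop anchor in any library.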
